A study of Danio rerio with 6 samples.

Results

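The untreated adult olfactory organ of the zebrafish was described from the 3 control libraries of a series of 6. These are the libraries that the labels call Control and untreated, numbered 1 to 3, and all 3 were used. The other 3 libraries came from fish exposed to phenylethyl alcohol, an odorant, and were not used. The control fish were of a wild type line derived from AB. They had distilled water added every day during 3 weeks of development, where the other fish had the odorant, and both were kept in a recirculating system afterwards. The tissue is labelled olfactory epithelium and was labelled as collected at 6 months of age. The paper gives an older age range for its fish in general. Heads of 10 fish per group were taken, without saying whether that means each library, and the exposure is said to have been done as biological triplicates. No pair of the 3 libraries was as alike as counting noise would leave it, since the chi-square statistic of their counts averaged 13.0 to 54.2 per gene where such noise gives 1, with medians of 1.62 to 3.33. The sources used here do not say how many fish stand behind each library. Differences between fish, between pools of fish and between library preparations therefore cannot be told apart in the spread between the libraries.

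The olfactory organ of fish lies in the nose as a rosette of folded lamellae. In the central sensory part, ciliated, microvillous and crypt sensory neurons send axons to the olfactory bulb, and each neuron carries receptors from the odorant receptor, trace amine receptor or vomeronasal-type families. Sustentacular (supporting) cells stand between the neurons, and basal cells replace both throughout life. The outer part of the lamellae carries multiciliated and mucous cells, and the paper counts the surrounding connective tissue sheath with its blood and lymphatic vessels as part of the organ. The question put to the data was which genes these cells contribute at rest, and how far 3 libraries of the same kind differ.

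The libraries held 45153814, 49085973 and 48299929 counts assigned to genes in Control 1, 2 and 3. Levels are given as CPM, counts per 1000000 of a library size scaled by TMM, a factor that aligns most genes between libraries. At this depth 3 counts, the floor used here, stood for 0.0590 to 0.0703 CPM, and counting error alone came to 14.0 to 15.3% of a level of 1 CPM. Of 33737 genes in the table, 26404 had a count in at least 1 control library and 23524 had one in every control library. An average of at least 1 CPM was reached by 17377 genes, at least 10 CPM by 10683, at least 100 CPM by 1882 and at least 1000 CPM by 120. The 10 most abundant genes took 8.73 to 9.02% of the counts of a library and the 100 most abundant 23.9 to 24.8%. Control 1 stood apart from the other libraries before any gene was considered. Its TMM factor was 0.945 against 1.04 and 1.02, 50% of its counts lay in 692 genes against 796 and 764, and the correlation of log2 CPM over the 17377 genes was 0.984 and 0.979 with Control 2 and 3, against 0.990 between those. Without TMM the median gene of Control 1 lay 0.12 lower on the log2 scale than in the other libraries. A small difference in a list of genes is therefore read only where it exceeds this shift. Control 1 was the highest library in 41.3% and the lowest in 40.3% of the 17377 genes, Control 2 in 25.8 and 26.7%, and Control 3 in 32.8 and 33.0%.

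Reads of the organ were spread over mitochondrial, ribosomal, cytoskeletal and calcium-binding genes, with several immune genes among the highest. CPM is not divided by transcript length, so the ranks order reads and not numbers of transcripts. The 13 mitochondrially encoded genes took 6.23, 6.81 and 6.91% of all counts, led by mt-co1, a subunit of cytochrome oxidase, at rank 1. The 74 cytosolic ribosomal protein genes took 8.80, 7.76 and 8.08%. The highest gene of the nuclear genome by reads was apoeb (ENSDARG00000040295), an apolipoprotein that carries lipids and is known from zebrafish microglia among other cells, at 12342, 9910 and 9917 CPM in Control 1, 2 and 3. It was followed by the translation factor eef1a1l1 at 8608, 7514 and 7980 CPM. Then came pvalb5 (ENSDARG00000032836), a parvalbumin that buffers calcium, at 8367, 6892 and 6780 CPM. All 3 genes were highest in Control 1, though eef1a1l1 was not so without TMM, and their CVs of 13.1, 6.83 and 12.1% set the scale of the spread at the top of the table.

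Cytoplasmic beta actin came next, with actb2 at 6299 ± 358 CPM and its near copy actb1 at 2874 ± 421 CPM (SD, n = 3 here and below). Reads shared by these copies, and by ribosomal, keratin, MHC and receptor genes, may have been split or dropped in the counting. The chaperone gene hsp90ab1 stood at 4079 ± 159 CPM. Both genes of the invariant chain, which escorts class II MHC molecules, were among the 25 highest named genes of the nuclear genome. The gene cd74a (ENSDARG00000009087) had 3904, 3396 and 3690 CPM, and cd74b had 2101, 1798 and 1987 CPM. The epithelial genes among the 25 were icn, the S100-family protein ictacalcin, at 2757 ± 556 CPM and the basal keratin krt5 at 2392 ± 124 CPM. The ictacalcin gene was higher in Control 1, at 3398 CPM, than in Control 2 and 3, at 2395 and 2479 CPM. The calcium-binding calb2a (calretinin, ENSDARG00000041062), which marks neurons in many systems, was one of the steadier abundant genes at 1957, 1795 and 1936 CPM. The remaining places were held by 6 ribosomal protein genes, tmsb4x, hspa8, a tubulin listed as TUBB4A (2 of 3), fth1a, tpt1, PKHD1L1 (1 of 2) and 2 loci without a descriptive name, si:dkey-238c7.12 and CR391998.1, at 3430 ± 366 and 3145 ± 137 CPM.

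**Figure D1:**
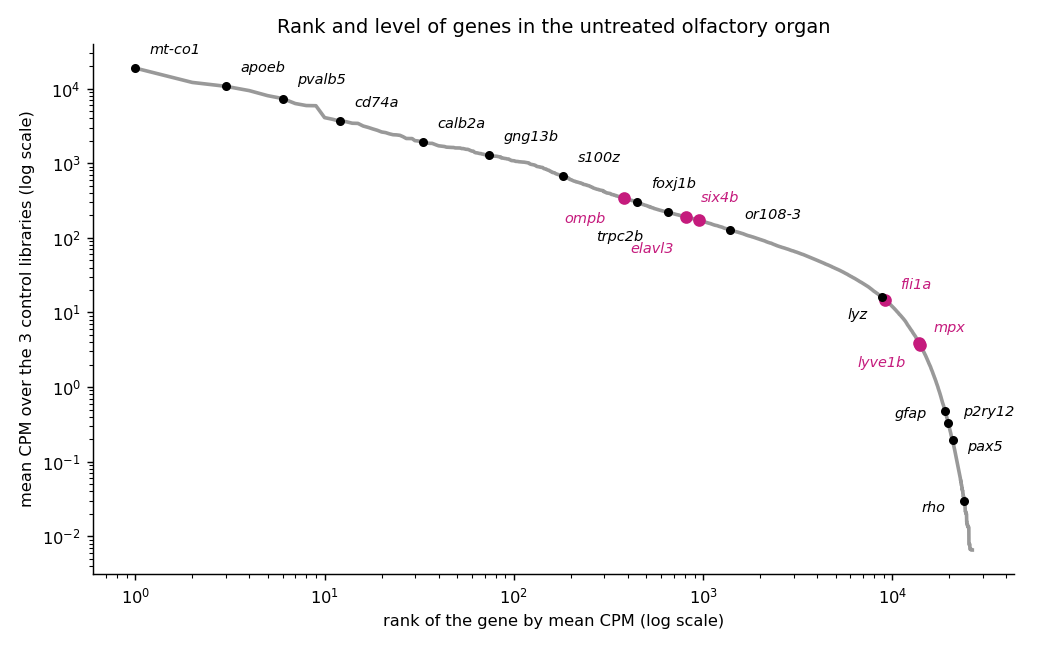
Mean CPM over the 3 control libraries (log scale) against the rank of each gene by that mean (log scale), as a grey line over all genes with a count. Points mark named genes, larger and in pink for 6 cell type markers: ompb, six4b and elavl3 lie at ranks 381 to 946, and fli1a, mpx and lyve1b at ranks 9160 to 14006.

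The 6 markers of the cell types studied in this organ fell into an epithelial group with many reads and a vessel and immune group with few. The gene ompb (ENSDARG00000032380), the olfactory marker protein of mature sensory neurons, had 324, 364 and 348 CPM in Control 1, 2 and 3. The homeobox gene six4b (ENSDARG00000031983), whose reporter labels sustentacular cells in zebrafish, had 193, 193 and 186 CPM. The RNA-binding protein gene elavl3 (ENSDARG00000014420), which marks postmitotic neurons, had 138, 186 and 192 CPM. The 3 libraries of six4b lay within a CV of 2.28% and those of ompb within 5.73%, whereas elavl3 was lower in Control 1 with a CV of 17.1%. The endothelial transcription factor gene fli1a (ENSDARG00000054632) had 14.7, 15.8 and 13.5 CPM, from 627 to 805 counts. The neutrophil peroxidase gene mpx (ENSDARG00000019521) had 5.25, 3.13 and 3.40 CPM, from 159 to 224 counts. The lymphatic vessel gene lyve1b (ENSDARG00000062483) had 3.84, 3.13 and 3.95 CPM, from 159 to 195 counts. All were above the floor in every library, and mpx had the widest spread of the 6, at 1.67-fold between Control 1 and Control 2. In bulk tissue a gene that is lower because its cells are fewer cannot be told apart from one with less RNA per cell.

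**Figure D2:**
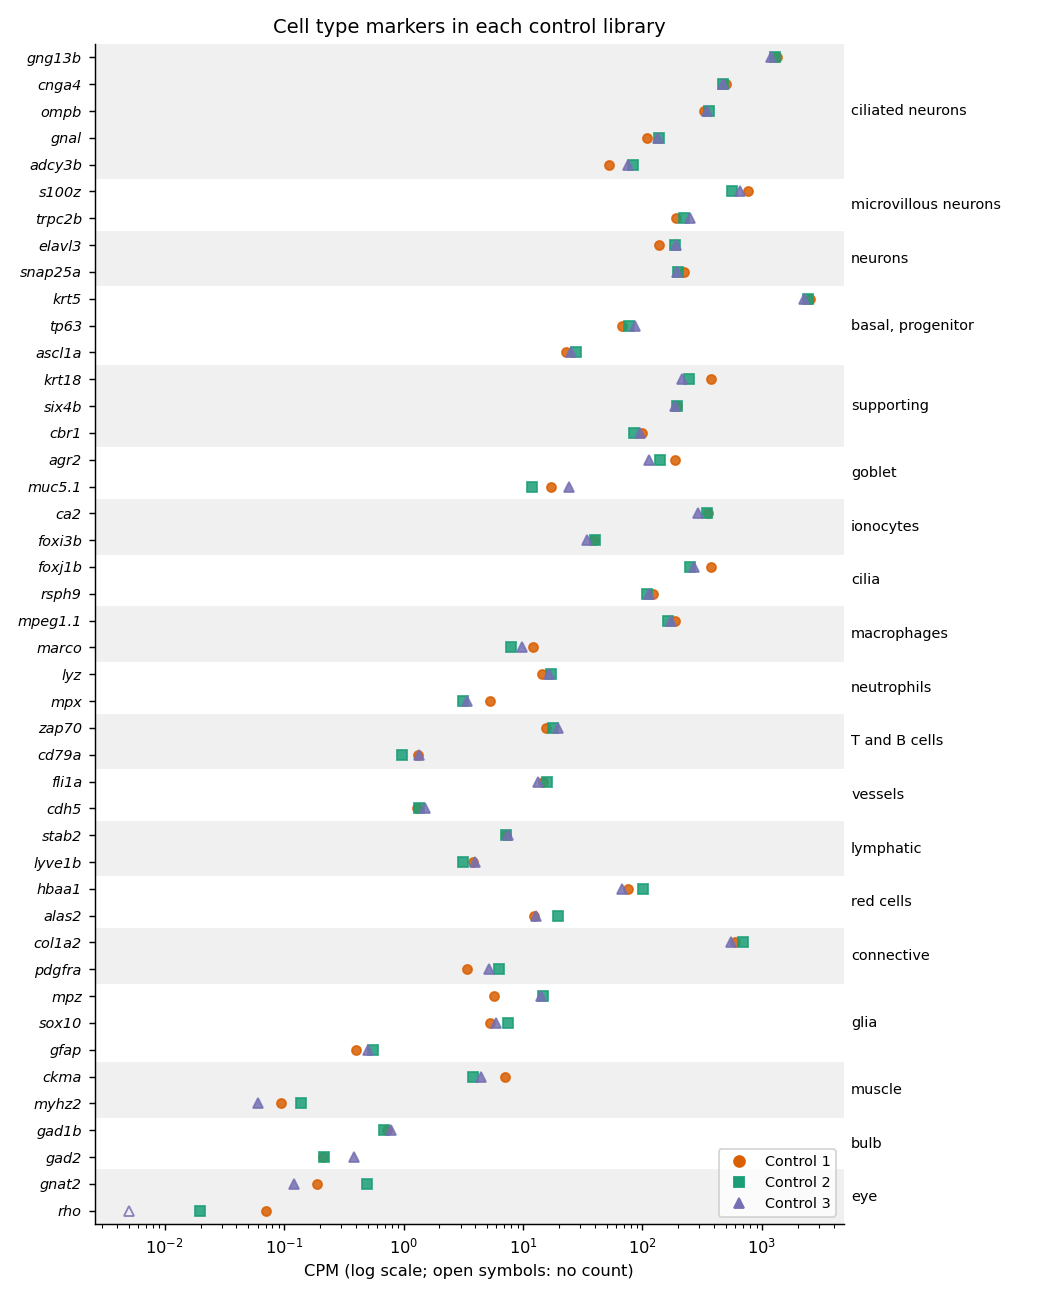
CPM (log scale) of marker genes grouped by cell type, 1 symbol for each control library, with open symbols where a library had no count. Markers of sensory neurons, basal and supporting cells lie mostly above 20 CPM and those of lymphatic vessels below 10 CPM, and symbols of 1 gene mostly overlap between libraries.

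Genes of olfactory transduction were abundant and even between the libraries. Of the 11 matched genes of ciliated sensory neurons, 9 reached 1 CPM, and their sum was 2533, 2522 and 2396 CPM in Control 1, 2 and 3. The G protein subunit gene gng13b led with 1346, 1285 and 1184 CPM, followed by cnga4, a subunit of the cyclic nucleotide-gated channel, with 502, 473 and 472 CPM. The gene gnal, the G protein alpha subunit that odorant receptors signal through, had 109.5, 137 and 134 CPM. Microvillous neurons use another channel, and its gene trpc2b had 189, 220.5 and 248 CPM. The calcium-binding s100z, a marker of a subset of microvillous neurons, had 771, 565 and 655 CPM, and the G protein gene gnao1b had 575, 548 and 608 CPM. General neuronal genes summed to 1746, 1713 and 1740 CPM, with the tubulin regulator stmn1b at 349.9, 329 and 341 CPM and the synaptic snap25a at 224, 199 and 196 CPM. No member of these 3 lists lay past 2-fold between its highest and lowest library, where the share over all genes was 4.74%. With 9, 7 and 18 members at or above 1 CPM, 0 is close to that share. Which library was highest in their sums depended on the scaling.

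The receptor families were read across many genes, at a low level per gene in the odorant and trace amine receptors. Of 116 odorant receptor (or) genes 101 reached 1 CPM, and together they held 1498, 1440 and 1349 CPM. The highest, or108-3, had 135, 123 and 127 CPM, followed by or111-1 with 87.2, 91.4 and 75.5 CPM. The median odorant receptor gene had 4.92 CPM. Of 93 trace amine receptor (taar) genes 71 reached 1 CPM and 12 had no count in any control library, and the family held 364, 354 and 364 CPM. Its highest gene, taar20c, had 27.0, 26.7 and 32.7 CPM. Of 38 genes of the vomeronasal-type OlfC and ora families 35 reached 1 CPM, and together they held 1015, 1089 and 1089 CPM. The highest, v2rl1, held 25.5% of this sum, at 249.6, 283 and 280.3 CPM. The median gene of these families had 18.4 CPM, and that of the trace amine receptors 2.54 CPM. Past 2-fold lay 0 of 101 odorant receptors, 3 of 71 trace amine receptors and 1 of 35 OlfC and ora receptors, where the share over all genes at or above 1 CPM was 4.74%. The share of trace amine receptors was thus close to that of all genes at or above 1 CPM. Over genes at 1 to 10 CPM, where the medians of the odorant and trace amine receptors lay, the share was 8.81%. Receptor genes form clusters of similar copies, so the value of a single member is less certain than that of its family.

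Basal, supporting and other epithelial cells were represented by their keratins and transcription factors. After krt5 the basal list was led by krt15 at 694, 683 and 708 CPM and by six1b, a homeobox gene of placodal progenitors, at 412, 369 and 360.1 CPM. The progenitor gene sox3 had 138, 189 and 168 CPM. Of 15 basal and progenitor genes 11 were lowest in Control 1, against 40.3% of all genes, with a median of -0.28 on the log2 scale against the other libraries. The supporting cell list was led by the keratin krt8, at 1281, 987 and 945 CPM. It also held the keratin zgc:77517, at 1132, 783 and 733 CPM, and the adhesion molecule epcam, at 978, 867 and 965 CPM. Whether the reads of these genes came from supporting cells alone was not tested. Of 12 supporting cell genes 9 were highest in Control 1, against 41.3% of all genes. Without TMM 4 were, against 4565 of all 17377 genes, so no order was read. None of the 12 lay past 2-fold, against 4.74% of all genes.

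Multiciliated cells were marked by foxj1b, the master transcription factor of motile cilia, at 376, 252 and 271 CPM, and by the axonemal genes spag6, at 300.2, 249 and 269 CPM, and rsph4a, at 265, 219.6 and 234 CPM. Of 13 genes of motile cilia all reached 10 CPM. Ionocytes, which carry ions across gill and skin, were represented by carbonic anhydrase ca2 at 350.4, 347 and 290.4 CPM and the sodium pump subunit atp1a1a.3 at 359, 289 and 303 CPM. The ammonia channel gene rhcga was the exception in its list. It had 240 counts in Control 1 and 21 and 28 in Control 2 and 3. Goblet cells were represented by agr2, a protein needed for mucin secretion, at 187, 141 and 113 CPM and by the mucin muc5.1 at 17.0, 11.8 and 24.1 CPM. These mucous genes did not share an order of libraries.

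Enzymes that modify foreign molecules, a known feature of olfactory supporting cells, took many reads. Of 86 cytochrome P450, conjugating and related genes 58 reached 1 CPM, with a sum of 3248, 2810 and 2778 CPM. The highest were cyp2ad2 at 586, 474 and 444 CPM and the sulfotransferase sult2st3 at 491, 421 and 430.5 CPM. They were followed by ugt8, a glycosyltransferase, at 196, 199 and 216 CPM. The list was drawn by gene name, so a member such as ugt8 need not act on foreign molecules. Of the 58 genes 39 were highest in Control 1, against 41.3% of all genes. Without TMM 31 were, against 4565 of all 17377 genes. Their median in Control 1 was 0.19 on the log2 scale, where all genes had 0.003. Without TMM it was 0.07, where all genes had -0.12. This order is given as a description only. Past 2-fold lay 7 of 58 (12.1%), against 4.74% of all genes. Over genes at 1 to 10 CPM the share was 8.81%, and the median of all 86 members was 5.77 CPM.

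Immune genes were led by those of macrophages and of antigen presentation. In the macrophage list apoeb alone held 90.6% of the summed CPM. Without it the sum was 1193, 1012 and 1149 CPM. The lysosomal CD68 had 365, 352 and 399.9 CPM and the perforin-like mpeg1.1, a macrophage marker in zebrafish, had 188, 162 and 174 CPM. Of 17 macrophage genes 15 were lowest in Control 2, against 26.7% of all genes, and 12 were highest in Control 1, against 41.3%. Without TMM these counts were 11 and 11, against 2702 and 4565 of all 17377 genes. None of the 17 lay past 2-fold, against 4.74% of all genes. The MHC and antigen presentation list held 10412, 9467 and 10935 CPM over 22 genes, of which b2m, the light chain of class I molecules, had 1213, 1170 and 1346 CPM.

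Neutrophil genes were read at a lower level. The highest, mmp9, a matrix protease that other cells also make, had 152, 127 and 180.0 CPM, and srgn, a granule proteoglycan, had 137, 114 and 110.2 CPM. The chemokine receptor gene cxcr4b, which is not limited to neutrophils, had 147, 72.7 and 57.7 CPM. It was 1 of 2 members past 2-fold among 12 at or above 1 CPM (16.7%), against 4.74% of all genes. Of these 12 genes 8 were highest and 2 lowest in Control 1, against 41.3 and 40.3% of all genes. The list held 555, 407 and 454 CPM. The defining genes were low, with lyz (lysozyme) at 14.3, 17.1 and 16.5 CPM and mpx as given above. The genes lyz and mpx did not share an order of libraries. Lymphocyte genes were also low. The T cell list was led by the transcription factor genes gata3, at 85.8, 96.6 and 86.8 CPM, and runx3, at 36.6, 49.5 and 54.1 CPM, which other cells also express, while the T cell kinase zap70 had 15.5, 17.7 and 19.6 CPM. In the B cell list xbp1, which all secretory cells use, held 73.8% of the sum. The locus listed as ighv1-4, now ighm, the heavy chain of IgM, had 670, 430 and 763 counts, and cd79a, which signals for the B cell receptor, had 1.31, 0.964 and 1.36 CPM.

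Vessels and connective tissue of the organ were both seen, the vessels with fewer reads. In the blood vessel list sox7 held 71.3% of the sum, at 323, 479 and 516 CPM, and without this gene the list held 177, 174 and 179 CPM. None of the 17 genes of the list at or above 1 CPM lay past 2-fold, against 4.74% of all genes. Whether the reads of sox7 came from vessels was not tested. The junction gene cdh5 of endothelium had 1.29, 1.36 and 1.52 CPM. Lymphatic genes were led by nr2f2, a nuclear receptor that mesenchyme also expresses, at 42.5, 60.9 and 54.2 CPM, and by prox1a, the transcription factor of lymphatic identity, at 14.8, 14.2 and 14.5 CPM. The hyaluronan receptor lyve1a was the single lymphatic gene past 4-fold, with 167 counts in Control 1 and 47 and 40 in Control 2 and 3, while its relative lyve1b did not share this order.

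Connective tissue genes held 3743, 4157 and 3432 CPM, with the collagens col1a1a at 1001, 1135 and 934 CPM and col1a2 at 596, 690.1 and 551 CPM. Of 17 such genes 14 were highest in Control 2, against 25.8% of all genes. Red cell genes were also highest in Control 2. The globin hbaa1 had 75.2, 102 and 67.5 CPM, the heme enzyme alas2 had 12.3, 19.8 and 12.7 CPM, and 11 of 13 red cell genes were highest in Control 2. Mural cell genes were highest in Control 2 for 7 of 11 members, led by rgs5a at 157, 192 and 152 CPM. The medians over members in Control 2 were 0.28, 0.42 and 0.29 on the log2 scale for connective tissue, red cells and mural cells, where all genes together had a median within 0.01 of 0. Without TMM 16 of 17, 12 of 13 and 8 of 11 genes of these lists were highest in Control 2, against 6472 of all 17377 genes. The list sums differed by 1.21-, 1.44- and 1.22-fold. The part of tissue composition in the position of Control 2 was not tested.

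Myelin genes of glia included mbpb at 90.3, 91.7 and 100.2 CPM. The peripheral myelin gene mpz had 5.67, 14.8 and 14.2 CPM and mbpa had 1.80, 7.52 and 6.71 CPM, both lower in Control 1. The list as a whole did not share this order, with 6 of 14 genes highest and 8 lowest in Control 1. Over all genes these shares were 41.3 and 40.3%. The list held 218, 235 and 226 CPM. Past 2-fold lay 4 of the 14 (28.6%), against 4.74% of all genes. The astroglial gene gfap was below 1 CPM in every library.

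Genes listed for tissues next to the organ ranged from no count to high levels, and whether their reads came from those tissues was not tested. In the list of bulb and forebrain neurons 12 of 24 genes reached 1 CPM, calb2a held 82.4% of the sum, and without it the list held 405, 385 and 422 CPM. Most of that came from the homeobox gene dlx5a at 173, 143 and 161 CPM, the vesicular glutamate transporter gene slc17a6b at 150.3, 145 and 161 CPM and the T-box gene tbr1b at 53.0, 59.4 and 61.1 CPM. The first and second of these lay near the level of elavl3. The genes th and slc17a7a, of dopaminergic and cortical-type neurons, had no count in the control libraries, and the inhibitory neuron genes gad1b and gad2 were below 1 CPM. None of the 20 matched genes of lens and photoreceptors reached 1 CPM, and together they held 1.94, 1.91 and 1.74 CPM. Of 31 muscle genes 9 reached 1 CPM. The enolase eno3 held 89.0% of that list, and without it the sum was 29.0, 29.8 and 21.0 CPM, and the muscle creatine kinase ckma had 299, 193 and 218 counts. Pigment cell genes held 12.1, 13.3 and 15.5 CPM. The list of epidermal keratinocytes held far more, at 9105, 7969 and 8168 CPM. In it icn held 32.8% of the sum, and krt5 belonged to it as well as to the basal list.

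Most genes differed little between the libraries. Over the 17377 genes at or above 1 CPM the median of the highest over the lowest library was 1.23-fold and the median CV was 10.9%. The common biological coefficient of variation, the spread beyond counting noise, was 0.171, and it fell to 0.113 without Control 1. A total of 823 genes (4.74%) lay past 2-fold and 119 (0.685%) past 4-fold. The spread depended on the level, with 590 of 6694 genes past 2-fold at 1 to 10 CPM, 188 of 8801 at 10 to 100 CPM, 45 of 1762 at 100 to 1000 CPM and 0 of 120 above. For each gene past a limit, the library farther from the middle value was taken as the one apart. Control 1 was apart in 546 of the 823 genes, 234 high and 312 low, and in 76 of the 119, of which 62 were high. Control 3 was apart in 174 of the 823 and Control 2 in 103. Compared in pairs over the same genes, 468 (2.69%) lay past 2-fold between Control 1 and 2, 615 (3.54%) between Control 1 and 3, and 184 (1.06%) between Control 2 and 3. Past 4-fold lay 56 (0.322%), 90 (0.518%) and 31 (0.178%) genes in the same pairs.

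**Figure D3:**
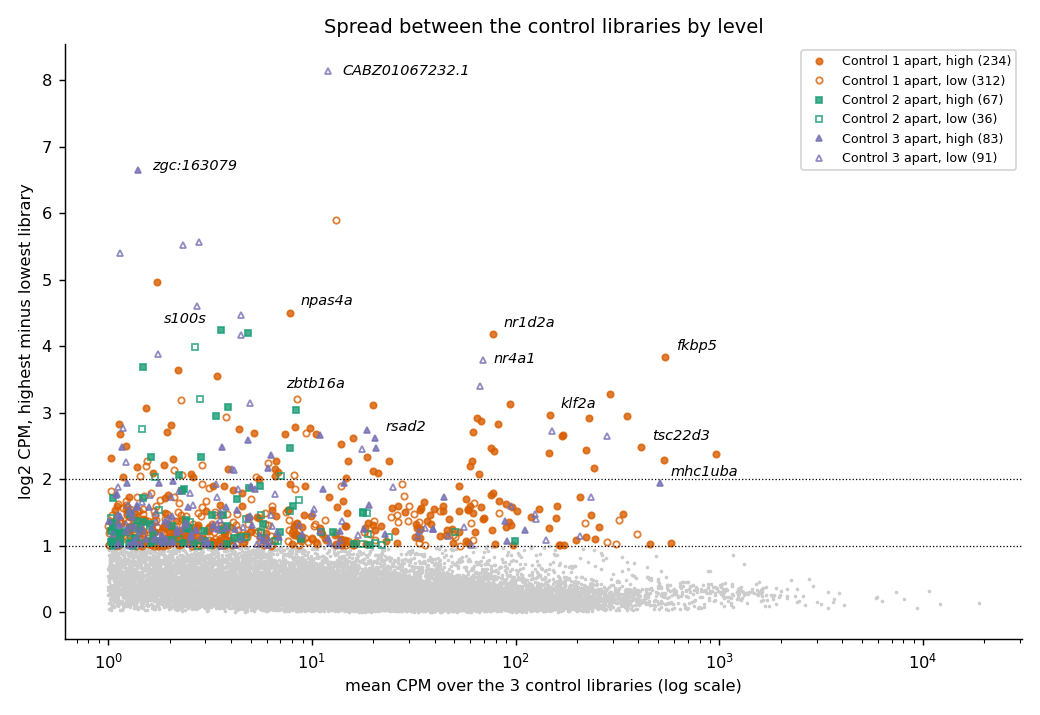
Difference in log2 CPM between the highest and the lowest control library (vertical axis) against mean CPM (log scale) for the 17377 genes at or above 1 CPM. Genes past 2-fold are coloured by the library that stood apart, filled where it was high and open where it was low, and the dotted lines mark 2-fold and 4-fold. Among abundant genes most coloured points are Control 1 high.

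The steadiest genes above 100 CPM were chosen as the 10 with the smallest range, so their evenness is a description of that choice. The chromatin remodelling factor listed as BAZ1A (1 of 2) had 4286, 5083 and 4946 counts, or 100.2 ± 0.192 CPM. The group also held the transcriptional repressor irf2bp1, the splicing factors sf3a1 and scaf11, the SWI/SNF subunit smarcc1a, the spectrin spna2, the membrane linker ezrb, the kinesin receptor ktn1, the protease st14a and MFAP3L. Their CVs ran from 0.192 to 0.670%. They lay between 100.2 and 222 CPM.

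The widest spread of abundant genes lay in targets of the glucocorticoid receptor, which is bound by cortisol, the stress hormone of fish. Of 16 genes of this list at or above 1 CPM 11 lay past 2-fold and 8 past 4-fold, against 4.74 and 0.685% of all genes. Control 1 was highest in 10 of them, against 41.3% of all genes. This list, like the others, was chosen with earlier results of these data known, so the shares only describe it. The list held 5367, 1478 and 1049 CPM. The co-chaperone fkbp5 (ENSDARG00000028396), which acts on the receptor itself, had 1429, 99.9 and 101 CPM. The leucine zipper tsc22d3, an anti-inflammatory target, had 838, 252 and 150.4 CPM. The transcription factor cebpd had 749.8, 212 and 96.6 CPM. Control 1 was the highest in each, by at least 3-fold over the next library, and Control 2 exceeded Control 3 in tsc22d3 and cebpd but not in fkbp5. The cytokine signalling inhibitor socs3a had 667, 139.8 and 68.5 CPM, and gadd45ba, a stress-induced growth inhibitor, had 481, 139 and 107 CPM. The Kruppel-like factor klf9 had 159, 21.7 and 22.3 CPM. The enzyme gene hsd11b2, which inactivates cortisol, had 374, 79.2 and 59.0 CPM. These 4 genes followed the same pattern, while the receptor nr3c1 itself had 63.8, 79.2 and 76.7 CPM and the metallothionein mt2 had 82.3, 84.9 and 82.9 CPM. The transcriptional repressor zbtb16a went the other way, at 1.36, 12.8 and 11.2 CPM, the widest range of a named gene in which Control 1 was the library apart and low. Between Control 2 and 3 alone 3 of the 16 genes lay past 2-fold and 0 past 4-fold, where the share over all genes was 1.06%. Without Control 1 the list held 1300 CPM on average in place of 2631.

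**Figure D4:**
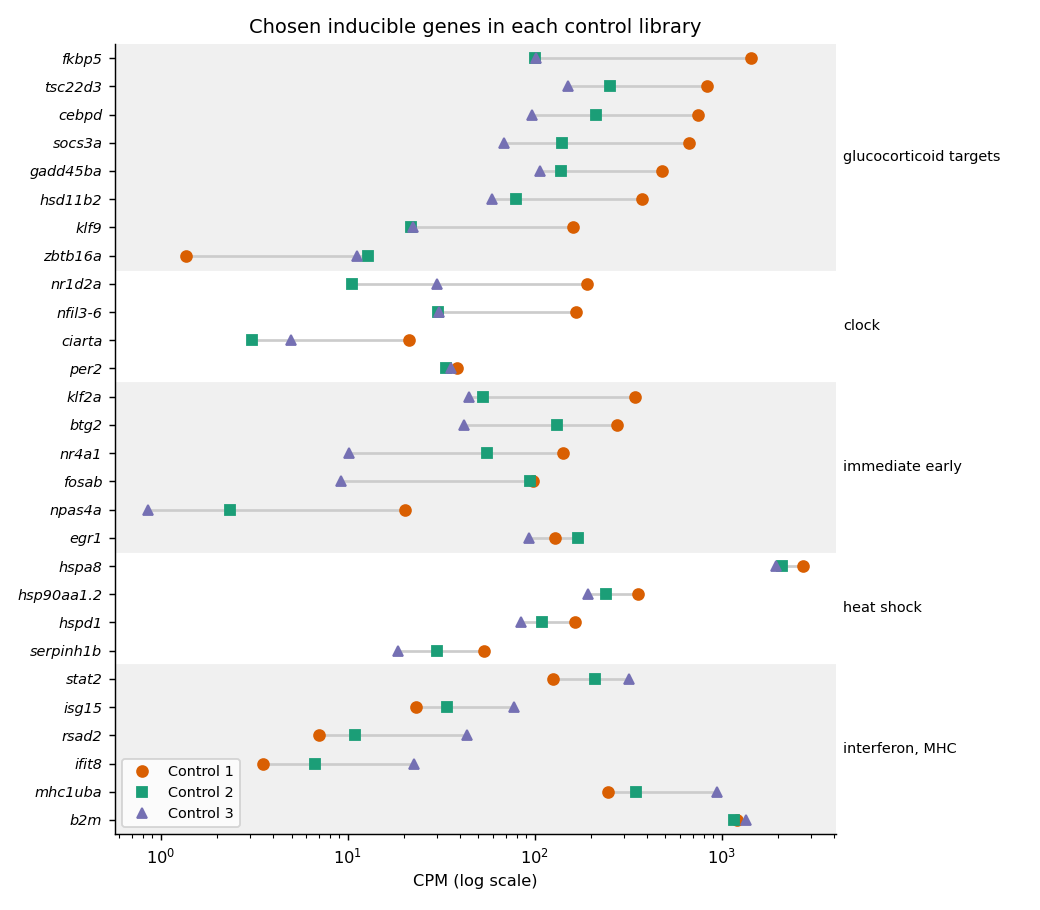
CPM (log scale) in each control library for chosen genes of 5 inducible groups, with a grey line from the lowest to the highest library. Among those drawn, Control 1 is the highest in the glucocorticoid targets other than zbtb16a and in the 4 clock genes, and Control 3 is the highest in the interferon and MHC genes.

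Some clock genes were also highest in Control 1, without the order of Control 2 and 3 seen in tsc22d3 and cebpd. The repressor nr1d2a (ENSDARG00000003820), which turns off activators of the clock, had 191, 10.5 and 29.9 CPM, and nfil3-6, a further repressor, had 167, 30.3 and 30.7 CPM. The clock-associated ciarta had 21.2, 3.07 and 4.96 CPM. Control 1 was at least 4-fold above the next library in all 3. The cryptochrome gene cry2a had 399, 437 and 445 CPM, the output factor gene tefa 380.2, 274 and 302 CPM and the period gene per2 38.5, 33.6 and 35.4 CPM, none of them past 2-fold. Of 33 clock genes 18 were highest and 10 lowest in Control 1, against 41.3 and 40.3% of all genes. Past 2-fold lay 5 of the 33 and past 4-fold 3, against 4.74 and 0.685% of all genes. Between Control 2 and 3 these counts were 1 and 0, against 1.06 and 0.178% of all genes.

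Immediate early genes, which cells transcribe within minutes of a stimulus, formed a graded series. Of 21 such genes 12 lay past 2-fold and 6 past 4-fold, against 4.74 and 0.685% of all genes. Control 1 was highest in 17, against 41.3% of all genes, and Control 3 was lowest in 16, against 33.0%. The list held 1787, 1017 and 618 CPM. The antiproliferative btg2 had 277, 132 and 41.9 CPM and the nuclear receptor nr4a1 had 141, 55.4 and 10.1 CPM. The flow-responsive factor klf2a was high in Control 1 alone, at 345, 52.7 and 44.4 CPM. The gene fosab, part of the AP-1 factor, was instead low in Control 3 alone, at 97.7, 93.8 and 9.24 CPM, and egr1 was highest in Control 2, at 129, 171 and 93.2 CPM. The neuronal activity gene npas4a had 20.2, 2.34 and 0.851 CPM. The list therefore did not follow Control 1 as a block. Between Control 2 and 3 alone 6 of 21 members lay past 2-fold, against 1.06% of all genes. The mean of the list without Control 1 was 841 CPM, against 1141 CPM with it.

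Chaperones were higher in Control 1 by less. Of 20 heat shock genes 18 were highest in Control 1 and 16 lowest in Control 3, against 41.3 and 33.0% of all genes. Their medians in these libraries were 0.53 and -0.47 on the log2 scale. Past 2-fold lay 6 of the 20, against 4.74% of all genes. The constitutive hspa8 had 2734, 2089 and 1955 CPM, the mitochondrial hspd1 165, 109.6 and 84.1 CPM and the collagen chaperone serpinh1b 53.8, 29.9 and 18.6 CPM. Ribosomal protein genes were also highest in Control 1, in 72 of 74 members, against 41.3% of all genes. Their median was 0.28, but 0 of 74 lay past 2-fold, against 4.74% of all genes. Both counts and the median of 0.16 without TMM kept Control 1 at the top. Mitochondrially encoded genes summed to 65875, 65730 and 67658 CPM in Control 1, 2 and 3, though their share of raw counts was lowest in Control 1. Cell cycle genes gave no common order by member, with 13 of 26 highest in Control 1 and 12 in Control 3, against 41.3 and 32.8% of all genes. Their sum was 783, 712 and 637 CPM in Control 1, 2 and 3. The replication factor pcna had 235, 195 and 163 CPM and the licensing factor mcm5 had 45.1, 33.8 and 20.3 CPM, but the proliferation marker mki67 had 47.9, 63.9 and 64.7 CPM.

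Interferon response genes were graded in the opposite direction, from Control 1 as the lowest to Control 3. Of 28 such genes 22 were highest in Control 3 and 18 lowest in Control 1, against 32.8 and 40.3% of all genes. Past 2-fold lay 12 and past 4-fold 3, against 4.74 and 0.685% of all genes. The list held 842, 1045 and 1517 CPM. The signal transducer stat2 had 126, 209.8 and 319 CPM and the ubiquitin-like isg15 had 23.1, 33.9 and 77.1 CPM. The antiviral enzyme rsad2 had 6.98, 10.9 and 43.2 CPM and ifit8, of a family that binds viral RNA, had 3.54, 6.71 and 22.6 CPM. The class I MHC gene mhc1uba (246, 346 and 942 CPM) had the same order of libraries, while b2m and the class II invariant chain did not differ past 2-fold. Not all members took part. The guanylate-binding gbp1 had 38.5, 35.9 and 37.9 CPM and irf1b had 45.9, 41.9 and 39.2 CPM. Between Control 1 and 2 alone 2 of 28 members lay past 2-fold, against 2.69% of all genes. Without Control 3 the list held 933 CPM on average in place of 1135.

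**Figure D5:**
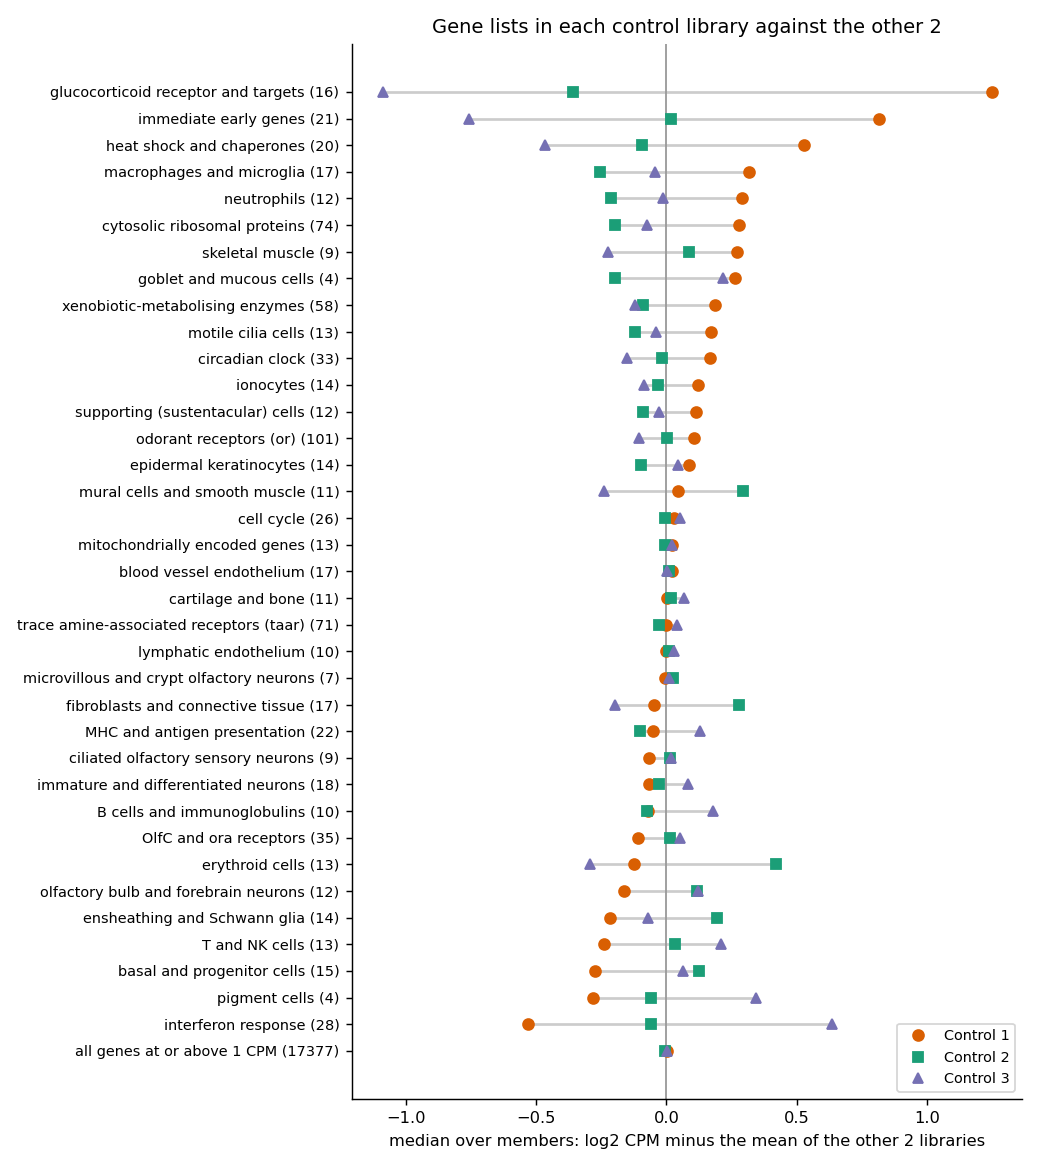
Median over the members of each gene list of the log2 CPM in a control library minus the mean of the other libraries, with the number of members at or above 1 CPM in brackets. Glucocorticoid targets, immediate early and heat shock genes lie high in Control 1 (1.25, 0.82 and 0.53) and interferon genes high in Control 3 (0.63), while receptor, neuron and vessel lists and all genes together lie close to 0.

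Genes outside these groups included the largest range of all, though npas4a and nr1d2a had wider ranges than some of the genes given here. The largest range was that of CABZ01067232.1 (ENSDARG00000057408), with 302, 1467 and 3 counts in Control 1, 2 and 3. The gene zgc:163079 had 0, 1 and 206 counts, and ENSDARG00000016736, which has no name in the table, had 19, 1476 and 486 counts. Each had over 200 counts in 1 library and 0 to 19 in another. A set of 4 further genes shared an order, with the most counts in Control 2 and the fewest in Control 3. The genes were zgc:173443 (106, 294 and 4 counts), cbln18, of the cerebellin-like family (56, 286 and 4 counts), si:dkey-205h13.2 (34, 132 and 1 counts) and fndc7b (91, 299 and 10 counts). High in Control 2 alone stood s100s, of the S100 calcium-binding family, with 65, 448 and 21 counts. The coagulation factor f5 was low in Control 2, with 240, 16 and 101 counts, and f13a1a.1, the subunit of a clot-stabilising enzyme, was high in Control 3, with 469, 296 and 1935 counts. Of the named genes in which Control 1 was low, zbtb16a, of the glucocorticoid list, was followed by phyh. This enzyme of fatty acid oxidation had 20, 234 and 87 counts.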

How the data were processed

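The 3 control libraries were sequenced from total RNA of dissected olfactory epithelium. Per the paper and the submitters' processing notes, the authors used FastQC 0.11.9 for quality control, Trim Galore 0.6.4 for trimming, Bowtie2 with the Zv9 genome for alignment and HTSeq 0.11.2 for counting. Which annotation release was counted, and how strand and reads with several alignments were handled, is not stated in those sources. The deposited raw counts per gene, which the authors left without normalization, were used. The table also holds their normalized values, group means and fold changes from DESeq2 1.24, which were not used.

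CPM was computed with TMM over the 3 libraries in edgeR 4.0.16 (R 4.3.3), and log2 CPM with a prior count of 2. Genes averaging 1 CPM or more entered the comparison of libraries. A range past 2-fold or 4-fold is a description, and no test was run, since a single group has nothing to be tested against. The intervals of counting error do not cover the preparation of libraries. Genes carry the name of the deposited table, and 21939 identifiers matched a current symbol. The 37 gene lists held 699 entries, of which 573 were matched, and the others were not analysed here. The members and lists were chosen with earlier results of these data known. Named genes are the 6 markers, the 25 highest named genes by mean CPM, up to 5 of the highest members of each list, the 20 with the largest range, the first 5 for each library apart in each direction, and the 10 steadiest at 100 CPM or more. Other genes named were chosen after their values were seen, among them klf9, hsd11b2, nr3c1, mt2, nfil3-6, ciarta, per2, fosab, npas4a, egr1, hspd1, serpinh1b, mki67, mcm5, isg15, rsad2, gbp1, irf1b, mhc1uba, lyve1a, mpz, mbpa, lyz, zap70, cd79a, cdh5, gfap, th, slc17a7a, gad1b and gad2.

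Alternatives were other scalings, other filters and prior counts, and each library left out in turn. The count of genes between each pair of libraries was added after the data were seen.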

Additional observations from a re-analysis of the deposited data

How the results depend on the processing

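No paired analysis was possible because all libraries belong to 1 group. Other scalings (no TMM factor, DESeq2 size factors, TMM over all 6 libraries) changed no count of genes by over 1.5 times and no list's sum by more than its SD. The highest library of a list was another one in 9 of 37 lists without TMM and in 5 with TMM over all 6 libraries, all of them lists whose sums differed by at most 1.12-fold between libraries. The number of genes past 2-fold, 823, became 334 at a mean CPM of at least 5, where fewer genes enter, and 1274 with the low-count filter filterByExpr in place of the 1 CPM minimum, which admits more genes of low counts. Past 4-fold 119 genes became 64 at a mean of at least 5. The rank per coding length was not run.

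Leaving out each library in turn gave 195 (without Control 1) to 600 genes past 2-fold, with 463 without Control 3. Past 4-fold lay 32 (without Control 1) to 87 genes, with 58 without Control 3. Each of these sets had 2 libraries, which give a smaller range than 3. The common biological coefficient of variation was 0.113 (without Control 1) to 0.201. Leaving out 1 of 3 values cannot by itself move a mean past the SD of the 3. A list could thus pass this limit only with the rescaled library sizes, and some lists did. Their summed CPM ran from 1711 to 1776 for neurons, 4283 to 4532 for basal cells and 218 to 237 for glia. It ran from 279 to 291 for cartilage and bone and 355 to 369 for taar genes. For OlfC and ora genes it was 1034 to 1120, and for mitochondrial genes 65099 to 68595. For neurons the 1776 CPM without Control 1 exceeded both libraries kept, at 1713 and 1740 CPM with TMM over the 3 libraries. Lists with a large SD stayed within their SD although they changed more. Glucocorticoid targets ran from 1300 to 3384 CPM, against 2631 with all 3 libraries. Immediate early genes ran from 841 to 1387 CPM, against 1141.

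With mitochondrial genes left out of the library size every other list came out 7.12 to 7.13% higher, since the total was smaller. This exceeded the SD of 12 lists: ciliated neurons came to 2661 CPM, microvillous and crypt neurons to 1893, neurons to 1856, basal cells to 4714, ionocytes to 1546, glia to 242, cartilage and bone to 305, bulb and forebrain to 2463, eye to 2.00, or genes to 1531, taar genes to 386 and OlfC and ora genes to 1140. Of 238 named genes with a value under this setting, 183 stayed within their SD. Depth limits genes near 1 CPM, where counting error alone is 14.0 to 15.3%.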
